A study of Mus musculus with 6 samples.

Results

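The genes described here encode the extracellular and membrane end of Wnt signalling: Wnt ligands, Frizzled receptors, co-receptors and alternative receptors, Dishevelled proteins, and secreted modulators. They were chosen by symbol from a list of 48 names, which stand for 47 genes because Sfrp3 is another name of Frzb. All 47 were found among the 47794 genes of the deposited table, and 45 of them were among the 30152 genes that the authors had tested. The RNA came from dissected primary somatosensory cortex of C57BL/6 mice at postnatal day 14. Control mice carried β-cat lox(ex3), a Ctnnb1 allele whose exon 3 is flanked by loxP sites, and the overexpression group carried that allele together with Nex-Cre (β-cat Ovp), with 3 libraries in each group. Whether 1 or both copies of Ctnnb1 were floxed is not given in the sources used here. Nex-Cre is expressed from the Neurod6 locus and acts in excitatory neurons of the forebrain, where loss of exon 3 removes the sites that mark β-catenin for degradation. Other cells of the tissue keep the unrecombined allele. The labels number the replicates without tying each to an animal, so a p-value here reflects no more than how these samples vary, and that variation could be technical.

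Wnt proteins are lipid-modified secreted ligands that bind the cysteine-rich domain of Frizzled receptors. With the co-receptors Lrp5 or Lrp6, a ligand-bound Frizzled recruits Dishevelled and blocks the breakdown of β-catenin. Stabilised β-catenin acts downstream of all these proteins. Ror1, Ror2 and Ryk are receptors for Wnt signals that need not pass through β-catenin. Sfrp proteins and Wif1 bind the ligands outside the cell, whereas Dkk1, Dkk2 and Dkk4 bind Lrp5 and Lrp6. In the developing cortex this pathway takes part in progenitor expansion, vessel growth, dendrite growth and synapse formation.

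The level of a gene is given as its mean scaled read count, that is, reads divided by a scaling factor for each library and averaged over the 3 libraries of a group. Values for single libraries were recovered from these means by matching them to whole reads. The libraries carry the letters A to C by descending scaling factor, since none could be tied to a replicate number. Both groups had settled library values for 38 of the 45 detected members. Scaling factors, which follow relative depth, were 0.907 to 0.982 in control and 0.966 to 1.23 in overexpression libraries. Group means summed over all genes to 19016749 in control and 18602579 in overexpression cortex. In the labelled tissue all 8 excitatory neuron markers were detected, with summed levels of 47142 in control and 44520 in overexpression cortex. These 8 include Neurod6, and 7 of them had the lower mean in overexpression cortex. All 6 inhibitory neuron markers were also lower there, while all 5 oligodendrocyte and all 5 striatal markers were higher. The other marker lists were divided in direction. For Neurod6, the gene that drives Nex-Cre, the means were 1942 in control and 1199 in overexpression cortex, and the authors' deposited table gave p = 5.04e-05 (adjusted, 0.76). Ctnnb1 itself had the lower mean in the group named overexpression, 6391 against 7574 in control cortex, and the authors' deposited table gave p = 0.0304 (adjusted, 1). A gene-level count of Ctnnb1 includes exons outside exon 3 and does not check the genotype labels.

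Promoter windows are shown for Dvl2 and Wnt16, the members with an unadjusted p under 0.05, and for 1 of the 3 RefSeq starts of Wnt5b, the one whose window holds the core of the sequence that TCF/LEF factors recognise. Each runs from 250 bases before to 50 bases after the RefSeq start on build GRCm38.p6. They lie at chr11:70000342-70000641 on the plus strand for Dvl2, at chr6:22287977-22288276 on the plus strand for Wnt16 and at chr6:119449337-119449636 on the minus strand for Wnt5b. Capitals mark CTTTGA, which was searched on both strands (TCAAAG on the other).
Dvl2: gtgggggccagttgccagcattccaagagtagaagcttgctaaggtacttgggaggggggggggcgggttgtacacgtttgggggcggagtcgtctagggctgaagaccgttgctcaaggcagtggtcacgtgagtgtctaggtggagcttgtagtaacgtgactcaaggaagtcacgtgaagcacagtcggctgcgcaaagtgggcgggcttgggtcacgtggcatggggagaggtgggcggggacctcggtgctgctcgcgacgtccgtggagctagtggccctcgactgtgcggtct
Wnt16: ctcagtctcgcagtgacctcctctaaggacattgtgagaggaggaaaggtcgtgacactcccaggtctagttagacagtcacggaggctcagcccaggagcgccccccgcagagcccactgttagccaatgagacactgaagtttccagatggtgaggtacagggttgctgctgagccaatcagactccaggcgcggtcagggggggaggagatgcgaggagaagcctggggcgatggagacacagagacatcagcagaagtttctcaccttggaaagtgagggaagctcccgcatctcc
Wnt5b: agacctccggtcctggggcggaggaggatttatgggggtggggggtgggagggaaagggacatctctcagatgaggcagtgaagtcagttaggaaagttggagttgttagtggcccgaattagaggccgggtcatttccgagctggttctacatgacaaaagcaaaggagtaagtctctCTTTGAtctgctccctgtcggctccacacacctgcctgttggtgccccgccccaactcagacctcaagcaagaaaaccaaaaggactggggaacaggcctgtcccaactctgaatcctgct
The Wnt5b window shown held the core at position 180, counted from its 5′ end, and the windows at the other 2 Wnt5b starts held none. RefSeq promoters were at hand for 33 of the 47 genes, in 36 windows. CTTTGA was present in 6 of these 36 windows (16.7%) and in 16.0% of all 32851 promoters of the same length. The 6 windows belonged to Dkk1, Frzb, Fzd1, Ror1, Wnt11 and Wnt5b. The same core followed by a T, also searched on both strands, was in 2 of 36 windows (5.56%), those of Wnt11 and Wnt5b, and in 3.73% of all. The median GC content was 67.2% in member windows and 52.7% in all promoters.

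No member passed the test for a difference between overexpression and control cortex. By the authors' deposited table, the adjusted p was under 0.05 for 0 of 45 members and for 0 of all 30152 genes (0.0%), and it was 1 for every member. An unadjusted p under 0.05 was given there to 2 members, Dvl2 with the higher and Wnt16 with the lower overexpression mean, beside 0.534% of all tested genes. On library values limma fitted 31 members among the 10457 genes that averaged 10 or more, and called 0 members and 0 genes (0.0%) at an adjusted p under 0.05. The limma unadjusted p was under 0.05 for the same 2 members, beside 2.02% of all genes fitted, and the lowest adjusted p of any member was 0.999. In limma the 95% interval of a member's fold change reached a median of 1.41-fold to either side, and up to 1.98-fold.

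Members lay on both sides of the control level, in a split that depended on single libraries. Their summed mean was 13064 in control and 12844 in overexpression cortex. Of the 45 detected members 20 had a higher and 25 a lower mean in overexpression cortex, with a median log2 ratio of -0.03. Over the 26236 tested genes detected in both groups the median was -0.01, with 12549 higher and 13687 lower. With both groups brought to equal totals, which adds 0.03 to each log2 ratio, 23 members were higher and 22 lower, and among all these genes 14607 were higher and 11629 lower. Of the 38 members with library values 17 were higher and 21 lower, which became 11 and 27 without control C and 21 and 17 without control B. Group means lay within 1.2-fold of each other for 27 of the 38 members with a mean of at least 10 (71.1%), against 87.0% of 17095 genes in that range. For the 21 members with a mean of at least 100 the share was 85.7%, against 97.3% of 11645 genes. In neither comparison were the genes matched to the members for level above the lower limit.

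**Figure D1:**
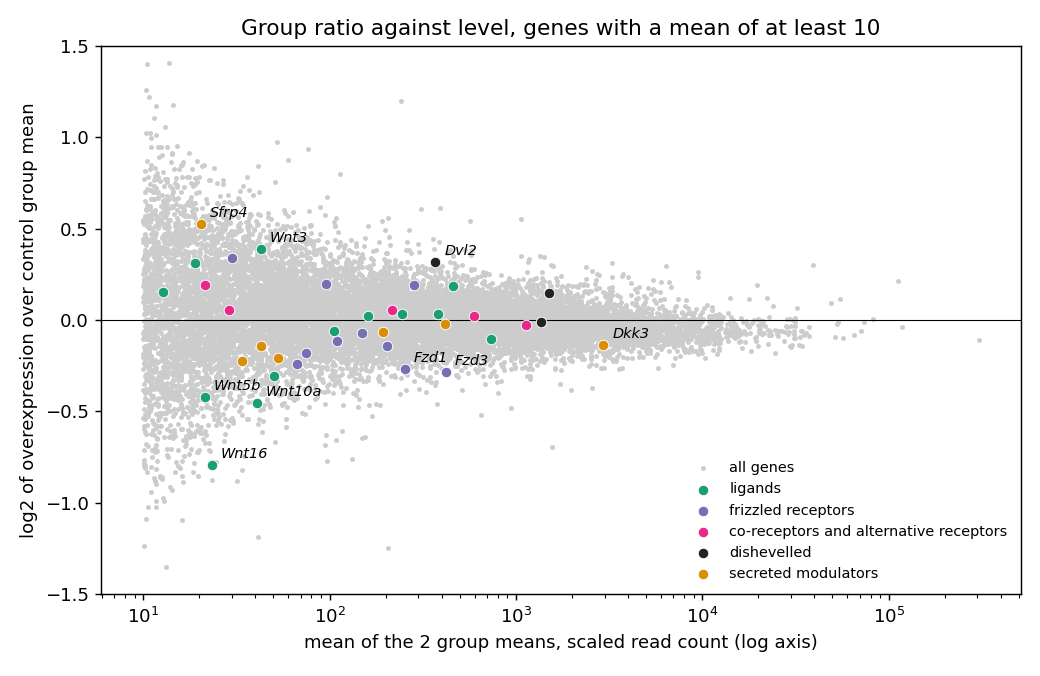
Log2 ratio of the overexpression over the control mean (y axis) against the mean of both groups in scaled reads (x axis, log scale). Grey points are 17088 of the 17095 genes with a mean of at least 10 (7 lie outside the axis), and coloured points are the 38 members in that range by role; the members lie on both sides of 0, with 17 above and 21 below.

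The ligands spanned a wide range of levels. Per kilobase of annotated exon, the scale used wherever genes are compared, Wnt4, best known from kidney and gonad development, led with 181 scaled reads in control and 168 in overexpression cortex. Wnt9a followed at 114 and 116. Wnt7b, a ligand that acts on brain vessels and on dendrites, stood at 87.8 and 99.8, and Wnt7a, which shares the vessel receptor complex with it, at 50.3 and 51.0. From Wnt7a down to the next gene, Wnt5a at 30.9 and 31.6, the 6 library values did not overlap. Below Wnt5a the order was Wnt2b, Wnt2, Wnt10a, Wnt3, Wnt5b, Wnt1, Wnt6 and Wnt16, and in each neighbouring pair the library values overlapped, so that order does not hold beyond their spread.

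Of the 17 detected ligands 10 had a higher and 7 a lower mean in overexpression cortex, with a median log2 ratio of 0.03, and both counts were the same under equal totals. The split did not hold across libraries: of the 15 ligands with library values 9 were higher and 6 lower, but 6 or 7 were higher without control A, control C or any 1 overexpression library, and 11 without control B. Wnt4 had 786, 672 and 824 scaled reads in control libraries A, B and C (79.1, SD, n = 3). Its overexpression mean of 707 against 761 fitted 5 sets of library values, of which 2 lay within 2-fold of the mean, 609, 753 and 758 or 857, 744 and 518, so no library test was made. The log2 ratio was -0.11, with p = 0.374 in the authors' deposited table. Wnt7b had 450, 394 and 446 in control libraries, and its overexpression mean of 489 fitted 4 sets, of which 2 lay within 2-fold of the mean, 441, 486 and 540 or 689, 477 and 300. In the first of these all but 1 overexpression library would lie above the controls, in the second the groups overlap widely. Its log2 ratio was 0.19 with p = 0.214 in the authors' deposited table. AU022754 is annotated over 6.61% of the Wnt7b exon bases. Wnt9a had 347, 380 and 407 in control against 328, 474 and 357 in overexpression libraries, and the groups overlapped. The limma log2 fold change of Wnt9a was 0.02 ± 0.14 (SE, n = 3 per group), an interval of 0.821-fold to 1.24-fold.

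Wnt16 (ENSMUSG00000029671), a ligand studied mostly in bone and joint, had the lowest authors' p among the ligands. Its control libraries held 23.4, 36.7 and 28.7 scaled reads and its overexpression libraries 12.2, 13.2 and 25.9. Overexpression A and B lay below every control library, while overexpression C lay above control A, so the groups overlapped. The means were 29.6 ± 6.70 in control and 17.1 ± 7.62 in overexpression cortex (SD, n = 3). The log2 ratio was -0.79, for which the authors' deposited table gave p = 0.032 (adjusted, 1). In limma the log2 fold change was -0.81 ± 0.33 (SE), an interval of 0.343-fold to 0.945-fold, with an unadjusted p of 0.0323 and an adjusted p of 0.999. Leaving out 1 library gave values from -1.14 without overexpression C to -0.63 without overexpression A, and the limma unadjusted p stayed under 0.05 only without control A or without overexpression C. Control B, its highest library, also held the highest summed level of 8 choroid plexus markers, 860 against 146 to 237 in the other 5 libraries. Most of that sum came from Ttr alone, with 713 in control B against 76.4 to 170 in the other 5. Overexpression A, lowest for Wnt16, held the lowest summed level of 4 meningeal and fibroblast markers, 253 against 367 to 467 in the other 5. The part of these tissues in the Wnt16 values was not tested.

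For the other ligands named near the lower end, single libraries carried much of the difference, and the groups overlapped. Wnt10a had 54.0, 33.5 and 54.0 in control against 43.2, 42.4 and 17.6 in overexpression libraries. Its low mean of 34.4 against 47.2 rested on overexpression C, and the limma log2 fold change went from -0.52 ± 0.34 (SE) to -0.11 without it. Wnt5b had 38.7, 18.4 and 16.5 in control against 16.3, 17.9 and 20.7 in overexpression libraries, so only control A stood high. Without control A the log2 fold change of Wnt5b was 0.06, against -0.31 ± 0.34 (SE) with all libraries. Wnt3, a canonical ligand named after its values were seen, had 46.8, 30.2 and 34.2 in control against 47.3, 51.8 and 46.6 in overexpression libraries. Its control A lay within the overexpression range, and the limma log2 fold change was 0.40 ± 0.23 (SE) with an unadjusted p of 0.103 and an adjusted p of 0.999.

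The remaining ligands with a mean of at least 10 were Wnt1, Wnt2, Wnt2b, Wnt5a, Wnt6 and Wnt7a, and the authors' deposited table gave them p from 0.302 to 0.995. Wnt5a, a ligand of Ror and Ryk receptors, showed the widest control spread of these in scaled reads, with 249, 303 and 172, against 261, 200 and 280 in overexpression libraries. Below a mean of 10 stood Wnt8b, Wnt9b, Wnt10b and Wnt11. Their libraries held 0 to 17 reads each, as for Wnt11 with 4, 14 and 3 reads in control and 8, 2 and 4 in overexpression cortex. Wnt3a and Wnt8a, ligands of early embryonic patterning, had 0 reads in all 6 libraries. Such a count allows a group mean of up to 1.07 in control and 0.921 in overexpression cortex (3 reads over the 3 libraries, counting error only).

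**Figure D2:**
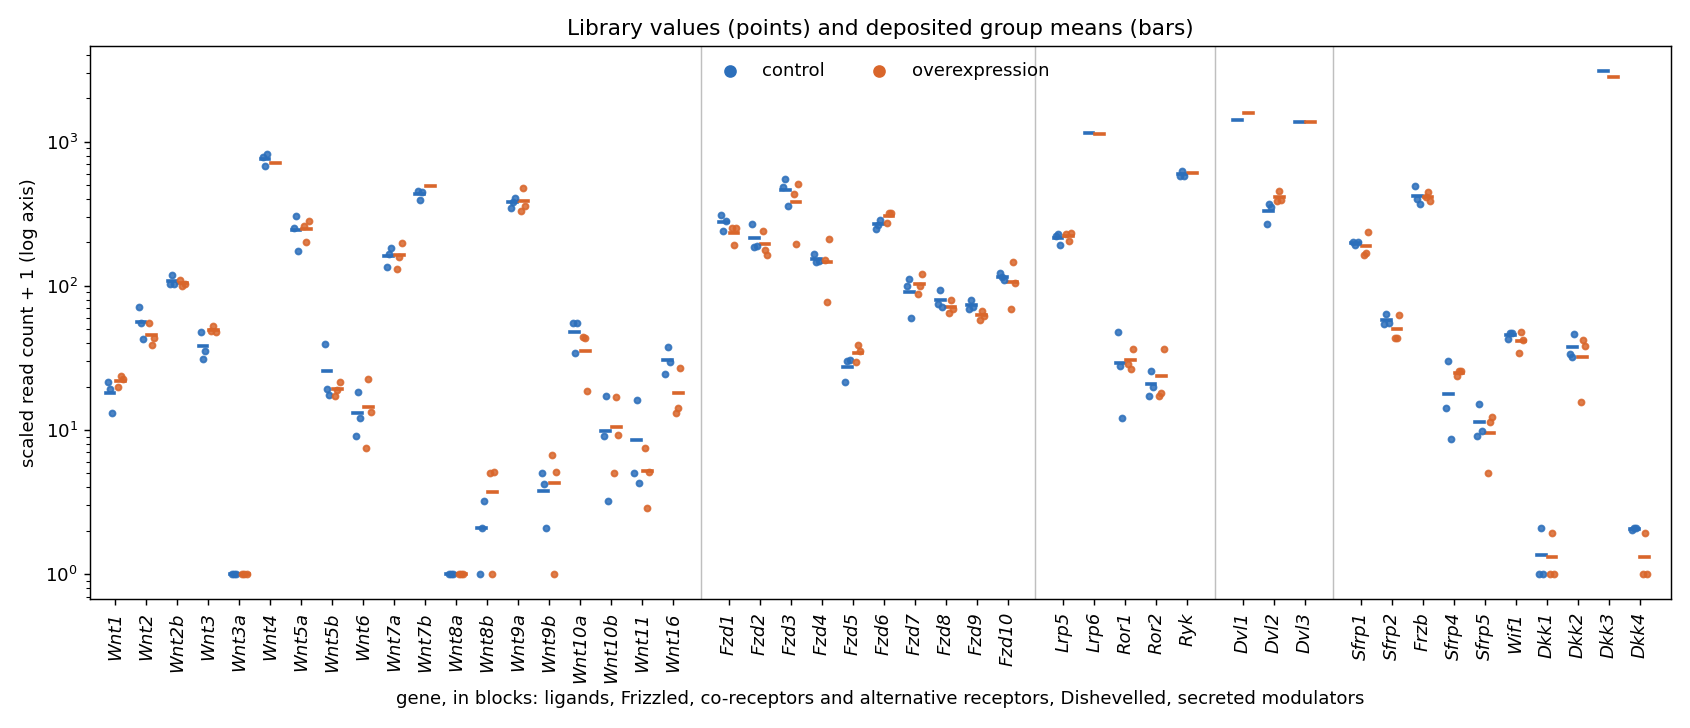
Scaled read count plus 1 (y axis, log scale) for the 47 genes by role, with a point for each library whose value was settled (control blue, overexpression orange) and a bar at each deposited group mean. Dvl2 is the member whose overexpression values (387 to 451) all lie above its control values (269 to 367), and Fzd9 the one with a mean of at least 10 whose overexpression values (57.0 to 65.9) all lie below (68.2 to 78.8).

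All 10 Frizzled receptors were detected, and 7 had a lower mean in overexpression cortex. The median log2 ratio was -0.13, against -0.01 for all genes. The authors' deposited table gave 0 of 10 an unadjusted p under 0.05. This count of 7 ranged from 5 without overexpression B to 8 without control C. Per kilobase, Fzd1, Fzd6 and Fzd2 led with control levels of 66.0, 55.0 and 58.0 and overexpression levels of 54.9, 63.0 and 52.5, and the library values of neighbours among them overlapped. Fzd5, a receptor known from eye development, had the lowest level at 3.82 and 4.84, and the 6 library values of Fzd8, the next above it, lay higher.

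Fzd1 had 310, 241 and 281 scaled reads in control and 251, 191 and 249 in overexpression libraries. The overexpression values were low in B and overlapped the control range in A and C. The limma log2 fold change was -0.27 ± 0.14 (SE, n = 3 per group), with an unadjusted p of 0.0862 and an adjusted p of 0.999. Without 1 library it lay between -0.37 and -0.14. Fzd6, which acts in planar cell polarity and hair patterning, went the other way, with 245, 264 and 287 in control against 271, 319 and 321 in overexpression libraries. Only overexpression A lay inside its control range, and the log2 fold change was 0.19 ± 0.12 (SE), with an unadjusted p of 0.129 in limma and an adjusted p of 0.999. Gm26704 overlaps 3.15% of the Fzd6 exon bases. Fzd5 had 20.4, 29.2 and 29.8 in control against 28.5, 37.6 and 34.1 in overexpression libraries, which overlapped, and a limma log2 fold change of 0.34 ± 0.26 (SE). Gm38058 is annotated over 17.8% of its exon bases, and how reads in the shared bases were counted is unknown.

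Fzd3, a receptor needed for axon tracts of the forebrain, varied most between libraries relative to counting error. It had 487, 545 and 356 in control against 434, 193 and 511 in overexpression libraries. The value of 193 in overexpression B lay below all 5 others, while overexpression A and C lay inside the control range. With these values the limma log2 fold change was -0.38 ± 0.29 (SE), and 0.05 without overexpression B. A second set, 186, 201 and 751, also fitted the overexpression mean of 379 and was set aside only by the 2-fold limit, which 193 meets and 186 misses by little, so which library stood apart is uncertain. With the search narrowed to 1.5-fold Fzd3 had no settled values. Fzd4, the receptor of norrin on vessels, was lowest in the same library, at 76.2 against 151 and 209 in the other overexpression libraries and 146 to 165 in control cortex. That library also differed by transcript length, with a median log2 deviation of 0.11 for the shortest and -0.03 for the longest of 4 equal classes of genes. The part of length in the low Fzd3 and Fzd4 values was not tested.

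Fzd9, a receptor gene expressed in hippocampus, was named after its values were seen because its groups did not overlap. Its control libraries held 68.2, 78.8 and 70.6 and its overexpression libraries 57.0, 65.9 and 61.0. The SD between libraries of a group was 0.614 times the value that counting alone gives, the lowest such ratio of the fitted members. Of the 31 members fitted, Fzd9 alone lay entirely below control and Dvl2 alone entirely above, a total of 2, while 6.97% of all fitted genes had groups that did not overlap. The Fzd9 log2 fold change in limma was -0.24 ± 0.17 (SE), with an unadjusted p of 0.197 and an adjusted p of 0.999. Fzd2, Fzd7, Fzd8 and Fzd10 had log2 ratios of -0.14, 0.19, -0.18 and -0.11, with p from 0.435 to 0.658 in the authors' deposited table.

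Among co-receptors and alternative receptors 4 of 5 had a higher mean in overexpression cortex, with a median log2 ratio of 0.06, and the authors' deposited table gave 0 of them an unadjusted p under 0.05. Of the 3 with library values all were higher, but only 1 was without control C and 1 without overexpression C. Lrp6, the fifth, had means of 1150 in control and 1128 in overexpression cortex. Its log2 ratio of -0.03 became 0.00386 under equal totals, where all 5 were higher. Ryk had the highest level per kilobase of these, 131 and 133, ahead of Lrp6 at 84.1 and 82.5. For Ryk the group means were 592 and 602, and the control libraries held 580, 620 and 576. Lrp5 had 219, 229 and 191 in control against 229, 204 and 231 in overexpression libraries, which overlapped, with a limma log2 fold change of 0.06 ± 0.12 (SE). Ror1 had 46.8, 27.0 and 11.03 in control against 27.7, 25.4 and 35.2 in overexpression libraries, and Ror2 had 16.3, 24.8 and 18.7 against 16.3, 16.9 and 35.2. Ror1 thus differed more within control cortex than between groups, and Ror2 stood high only in overexpression C. Per kilobase, averaged over both groups, Ror1 stood at 5.01 and Ror2 at 5.04 scaled reads, and their libraries overlapped.

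The 3 Dishevelled genes encode the cytoplasmic adaptors that receive the signal from Frizzled. Dvl1 and Dvl2 had higher and Dvl3 had nearly equal means in overexpression cortex. Dvl1 had means of 1422 in control and 1577 in overexpression cortex, a log2 ratio of 0.15 with p = 0.263 in the authors' deposited table, and Dvl3 had 1371 and 1360, a log2 ratio of -0.01 that was 0.02 under equal totals. Both were too high for library values to be settled. Per kilobase Dvl1 stood at 285 and 316, Dvl3 at 214 and 212 and Dvl2 at 52.3 and 65.1.

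Dvl2 (ENSMUSG00000020888) had the lowest unadjusted p of all members. It had 269, 367 and 352 scaled reads in control and 387, 451 and 392 in overexpression libraries. Every overexpression value lay above every control value, as for 4.27% of all fitted genes. The means were 329 ± 52.9 and 410 ± 35.4 (SD, n = 3). The log2 ratio was 0.32, for which the authors' deposited table gave p = 0.0272 (adjusted, 1). The limma log2 fold change was 0.33 ± 0.13 (SE), an interval of 1.03-fold to 1.53-fold, with an unadjusted p of 0.029 and an adjusted p of 0.999. Control A was its lowest and overexpression B its highest library. Without control A the limma log2 fold change was 0.19 and the unadjusted p 0.147, and without overexpression B they were 0.26 and 0.0924. With any of the other 4 libraries left out, the unadjusted p in limma lay between 0.0165 and 0.0386, and it was 0.0861 in a limma fit with no mean-variance trend. Other sets of overexpression library values also fitted the Dvl2 mean, namely 33.4, 921 and 275 or 636, 442 and 152, and were set aside because they hold values more than 2-fold from the group mean. Acadvl, a fatty acid oxidation gene on the opposite strand, shares 1151 of the 6298 exon bases of Dvl2 (18.3%), and the library kit does not mark strand. Acadvl itself had means of 338 in control and 306 in overexpression cortex, a log2 ratio of -0.14 with p = 0.34 in the authors' deposited table.

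**Figure D3:**
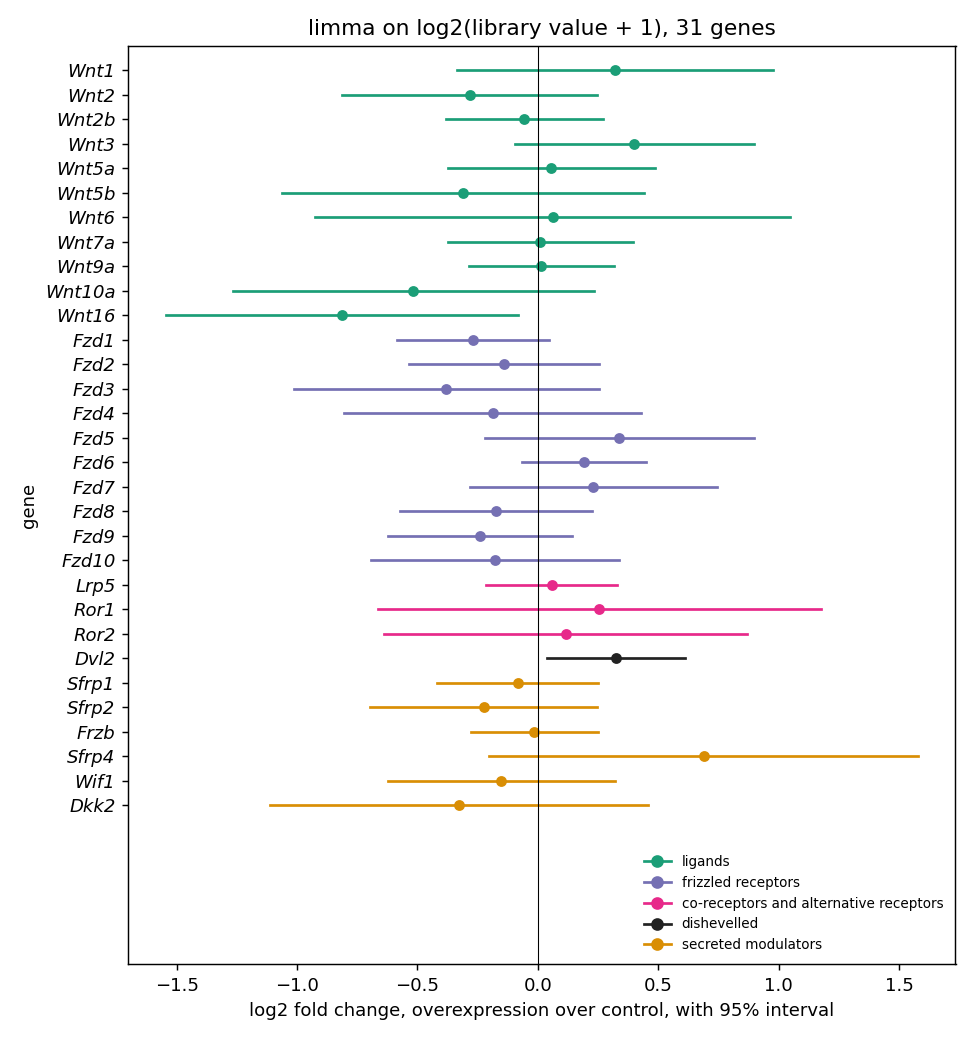
Log2 fold change of overexpression over control from limma (x axis) for the 31 fitted members, grouped by role, with points for the estimate and bars for the 95% interval. The intervals of Dvl2 and Wnt16 lie to either side of 0 without touching it, before adjustment, and the other 29 cross it.

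Among the 10 secreted modulators 9 had a lower mean in overexpression cortex, with a median log2 ratio of -0.17, against -0.01 for all genes. The lowest unadjusted p that the authors' deposited table gave to any of them was 0.285. The count and the median include 3 genes with a mean under 10, Sfrp5, Dkk1 and Dkk4. All 3 were on the lower side, although Dkk1 had only 1 read in each group. Under equal totals the count was 8 of 10, as Frzb moved to the other side. Of the 9 with library values 8 were lower, a count that dropped to 4 of 9 without overexpression A. Sfrp5, Dkk1 and Dkk4 are among these 9 as well. At these few reads, Sfrp5 and Dkk1 were among the genes that changed side without overexpression A. In that library the summed level of 4 meningeal and fibroblast markers was 253 against 367 to 467 in the other 5 libraries, and of 3 mural cell markers 319 against 540 to 712. None of the 8 meningeal and 5 mural markers was at 0 in both groups. Over each whole list the sums were 2988 and 5533 in control against 2916 and 5467 in overexpression cortex. The part of these cells in the count was not tested, and in bulk tissue fewer cells of a type cannot be told apart from less RNA per cell.

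Dkk3, a divergent member of the Dickkopf family found in neurons, had the highest level per kilobase of all members, 917 scaled reads in control and 834 in overexpression cortex. Its means were 3081 and 2801, a log2 ratio of -0.14 with p = 0.464 in the authors' deposited table. Frzb came next among the modulators at 130 and 128 per kilobase, then Sfrp1, Sfrp2, Wif1, Dkk2 and Sfrp4, and down to Dkk2 none of these neighbours with library values overlapped. Frzb had 495, 400 and 371 in control against 410, 448 and 387 in overexpression libraries, which overlapped, and a limma log2 fold change of -0.01 ± 0.12 (SE). Its interval reached from 0.825-fold to 1.19-fold.

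Sfrp1 had 200, 191 and 202 in control against 163, 168 and 236 in overexpression libraries. Overexpression A and B lay below the control range and C above it. Sfrp2 was likewise low in overexpression A and B, while C lay inside the control range, with 52.9, 62.6 and 54.0 in control against 42.4, 42.4 and 62.1 in overexpression libraries. The limma log2 fold change of Sfrp2 was -0.22 ± 0.22 (SE), and Gm26771 is annotated over 16.1% of its exon bases. Dkk2 was low in a single library, with 32.6, 31.3 and 45.2 in control against 14.7, 41.4 and 37.2 in overexpression cortex, and its log2 fold change of -0.33 ± 0.36 (SE) became 0.13 without overexpression A. Wif1 had 41.7, 46.4 and 46.3 in control against 33.4, 47.1 and 41.4 in overexpression libraries, again lowest in A. Sfrp4, the modulator with a higher mean, had 13.2, 29.2 and 7.72 in control against 22.8, 24.5 and 24.8 in overexpression libraries. Its control values lay on both sides of the overexpression range, and the limma log2 fold change was 0.69 ± 0.41 (SE), from 0.27 without control C to 1.17 without control B. Control B was also the library with the high choroid plexus sum, most of it from Ttr. The part of choroid plexus in the Sfrp4 value was not tested.

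Sfrp5, Dkk1 and Dkk4 were the modulators under a mean of 10. Sfrp5 had 8, 13 and 8 reads in control and 5, 11 and 11 in overexpression libraries. Dkk1 had 1 read in each group, and Dkk4 had 3 reads in control and 1 in overexpression cortex, so no ratio is given for these.

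**Figure D4:**
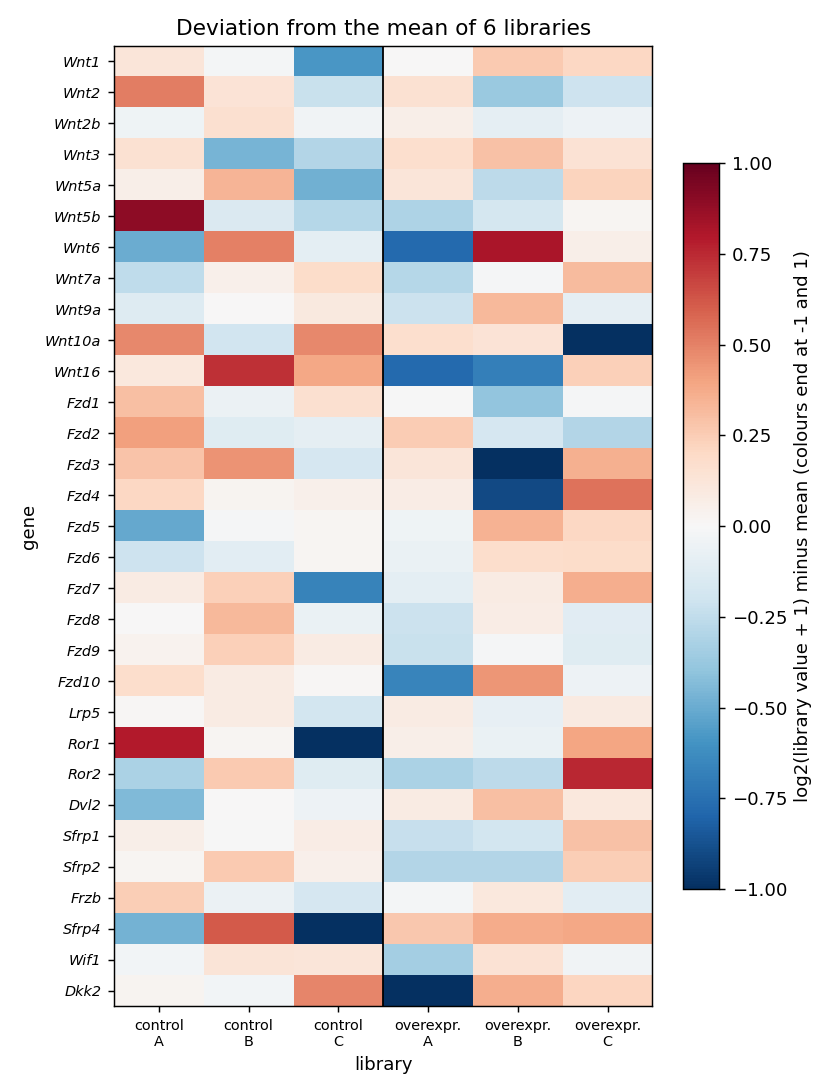
Deviation of log2(library value + 1) from the member's mean over the 6 libraries (colour, ending at -1 and 1), with the 31 fitted members in rows by role and the libraries in columns. Overexpression A is the lowest library of its group for 18 of the 31 members, a count not made over all genes. Overexpression B holds the low values of Fzd3 and Fzd4.

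Library spread was wider than counting alone gives for most fitted members, but not for Wnt3, Fzd5, Wif1, Wnt1, Wnt2b and Fzd9. The SD between libraries of a group was a median 2.42 times its counting value for the 14 fitted members with a mean of at least 100, against 1.66 for 5012 genes in that range. Fzd3, on the library values kept for it, had the highest ratio, 6.60, beyond the 95th percentile of those genes at 3.79, and Wnt2b was at 0.722. For the 17 members with means of 10 to 100 the median was 1.67, against 1.27 for 5445 genes, and Fzd9 was lowest at 0.614. In neither range were the genes matched to the members for level. Within the overexpression group, library A was lowest for 18 of 31 members and library C highest for 14. The same counts were not made over all fitted genes.

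Other genes of Wnt secretion, reception and modulation were likewise divided in direction. Of 50 measured, 24 had a higher and 26 a lower mean in overexpression cortex, with a median log2 ratio of -0.03 and 0 called in the authors' deposited table. The enzymes and carriers of ligand secretion had similar means, with Porcn, which adds the lipid, at 1293 in control and 1442 in overexpression cortex and Wls, which carries the ligand to the surface, at 648 and 613. Celsr3, a cadherin of planar cell polarity, was at 2504 and 2977, with p = 0.0691 in the authors' deposited table. An unadjusted p under 0.05 was given there to 1 of the 50, Rspo1, beside 0.534% of all tested genes. Rspo1 is a secreted ligand of Lgr receptors that raises Frizzled levels on the cell surface. Rspo1 had 52.9, 58.3 and 46.3 in control against 39.9, 32.0 and 31.04 in overexpression libraries, so that its groups did not overlap, as for 2.71% of all fitted genes in that direction. Its log2 ratio was -0.61, for which the authors' deposited table gave p = 0.0379 (adjusted, 1). In limma it was -0.60 ± 0.21 (SE), an interval of 0.476-fold to 0.912-fold, with an unadjusted p of 0.0164 and an adjusted p of 0.999.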

How the data were processed

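Total RNA of 6 cortex samples (3 control, 3 overexpression, grouped by title) was sequenced with an Illumina TruSeq kit, per the labels' protocols. The submitters' processing notes name Bowtie2 2.0.6 and TopHat2 2.0.9. The genome build, annotation, counter and test are unknown, being not given in the sources used here. Each row of the authors' deposited table holds, for 1 gene, a signal value per group, which its steps show to be an average over 3 libraries of scaled read counts. Its other columns, per the file headers, are the authors' log2 fold change, p-value and adjusted p-value. Of 47069 Ensembl IDs, 46488 matched a symbol.

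Library values were recovered by matching each mean, to its rounding at 10 significant digits, to whole reads of 3 libraries. Control means up to 500 and overexpression means up to 100 were searched in full, and higher means up to 1000 within 2-fold of the group mean. On simulated data 99.5% of 3787 control and 89.8% of 3793 overexpression values had 1 match, and 100% of those were right. The values of Wnt5a, Wnt9a, Fzd3, Fzd6, Dvl2 and Frzb rest on the 2-fold limit. The simulated spread between libraries was set narrower than that limit, so the simulation does not check these values. The fit used limma 3.58.1 (R 4.3.3) with trend on log2(value + 1), which understates fold changes of low genes, over genes with a mean of at least 10, with Benjamini-Hochberg adjustment. In simulated libraries of 10457 genes the limma fit called 69 of 100 genes changed 2-fold and 16 of 100 changed 1.5-fold. Both sets were changed in the same libraries, and all genes had the same spread beyond counting error. A single changed gene, or one with a wider spread, may be called less often. Exon lengths and overlaps came from GENCODE M21, which may differ from the authors' annotation.

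An exact permutation test of 3 against 3 cannot go below p = 0.1 and was not used. Named in each role group were members with an authors' unadjusted p under 0.05, the 3 with the highest mean, the 3 with the largest absolute log2 ratio among those with a mean of at least 10, and members at 0; any other gene was picked with its values in view. The members and lists were chosen with earlier results of these data known. Alternatives covered pseudocounts, filters, scaling, trend, search range and each library left out.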

Additional observations from a re-analysis of the deposited data

How the results depend on the processing

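With an unadjusted p under 0.05 in place of the adjusted one, 2 members were called in the authors' deposited table and 2 in limma. The adjusted p called 0 in both. At an adjusted p under 0.05 no member was called in any setting tried, and no other gene in any limma setting. The limma unadjusted count of members ranged from 1 to 3 with a library left out. The median log2 ratio over members stayed between -0.06 (the mean in its place) and 0.00386 (equal totals). Of the log2 ratios of 24 named members, 3 changed sign under equal totals, giving 0.00386 for Lrp6, 0.0201 for Dvl3 and 0.00860 for Frzb. Of 17 named members fitted in limma, 8 kept their direction with any 1 library left out and 9 did not. For these 9 the log2 fold change ranged from -0.53 to 0.0596 (Wnt5b), -0.14 to 0.12 (Wnt9a), -0.65 to 0.0484 (Fzd3), -0.0188 to 0.11 (Lrp5), -0.28 to 0.72 (Ror1), -0.23 to 0.30 (Ror2), -0.25 to 0.0138 (Sfrp1), -0.10 to 0.11 (Frzb) and -0.59 to 0.13 (Dkk2), and the cause was not tested. None of the 118 values under the other settings (pseudocount, filter, trend, quantile scaling, search range) changed sign. The number of all genes with an unadjusted p under 0.05 in limma, 211, was lowest without control A, at 152, and highest of these fits without control C, at 389. It was 350 without the trend, 444 with a mean of at least 1 and 737 with no filter on low values. No paired analysis was possible because the group means carry no replicate numbers and the library values could not be tied to any.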
